A study of Mus musculus with 15 samples.

Results

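The 9 genes described here are induced by interferon in many cell types: Isg15, Ifit1, Ifit2, Ifit3, Irf7, Irf9, Stat2, Usp18 and Rsad2. They were chosen by symbol, and all 9 were found among the 51912 genes of the deposited table and were among the 15692 genes with enough counts to test. The RNA came from wild-type mouse B cells in culture. The day 6 group (D6) was an unsorted bulk sample taken after 6 days of growth on 40LB cells, a fibroblast feeder line made to express CD40 ligand and BAFF, in medium holding 100 ng/ml IL-4. The other groups came from cells that then spent 2 days off the feeders with no stimulus and were sorted on day 8 by isotype and stage: IgE iGC, IgG1 iGC, IgE PC and IgG1 PC. PC are plasma cells, and iGC is the labels' name for the cells that had not become PC. Each of the 5 groups had 3 biological replicates, so 15 libraries in all; strain, sex and age of the mice are not in the labels. The title of the series names calcium signalling as a regulator of IgE plasma cells, and no group was treated with interferon according to the labels.

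Type I interferons bind the receptor chains IFNAR1 and IFNAR2. The kinases JAK1 and TYK2 then phosphorylate STAT proteins. STAT2 and IRF9 are parts of ISGF3, a complex that enters the nucleus and switches on genes that carry an interferon-stimulated response element (ISRE). The set holds several kinds of product: parts of the machinery itself (Irf9, Stat2 and Irf7, the last being the factor that amplifies type I interferon production), the ubiquitin-like modifier ISG15 with its protease USP18, which also restrains the receptor, and direct antiviral effectors (the RNA-binding IFIT proteins and the radical SAM enzyme viperin, encoded by Rsad2). In B cells the pathway is known for its effect on activation and on antibody responses.

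The response element was looked for in promoter windows from RefSeq (GRCm38.p6), which run from 250 bases before to 50 bases after each start. The core searched was GAAANNGAAA on both strands, and overlapping matches were counted. It occurred in 1131 of 32851 windows, 3.44% of all. Windows were held for 8 of the 9 genes, all but Usp18, and 5 of those 8 had the core. The stretches below are shown because they hold those matches, in capitals, and each reads 5′ to 3′ along the strand of its gene (TTTCNNTTTC is the core read from the other strand). They are, in order, chr4:156200856-156200915 (minus strand), chr19:34640769-34640828 (plus), chr19:34583365-34583424 (plus), chr10:128270251-128270310 (plus) and chr12:26456538-26456597 (minus), all upstream of the annotated starts.
Isg15: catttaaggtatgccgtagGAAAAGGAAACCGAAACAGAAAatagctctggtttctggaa
Ifit1: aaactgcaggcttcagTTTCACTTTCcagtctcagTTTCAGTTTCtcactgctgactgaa
Ifit3: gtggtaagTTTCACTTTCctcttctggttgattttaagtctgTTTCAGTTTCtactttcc
Stat2: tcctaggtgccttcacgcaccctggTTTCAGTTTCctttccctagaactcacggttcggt
Rsad2: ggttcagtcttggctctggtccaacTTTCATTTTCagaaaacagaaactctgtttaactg
Isg15 held 3 overlapping matches, Ifit1 and Ifit3 held 2 each, and Stat2 and Rsad2 held 1 each. The windows of Ifit2, Irf7 and Irf9 did not hold these letters. The gamma activated sequence TTCNNNGAA, which reads the same on both strands, was in 2726 windows (8.30%). Among the 8 genes with a window, only Ifit2 had it. A match is a description of the sequence and not a measured binding site.

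Levels per transcript length are given in TPM, RSEM's length-scaled unit. Stat2 and Irf9 had the highest levels, and Irf7 came near Irf9 in IgG1 PC only. Stat2, the ISGF3 subunit, had 26.4 ± 1.84 TPM at D6, 53.4 ± 2.01 in IgE iGC, 52.1 ± 3.47 in IgG1 iGC, 30.3 ± 1.41 in IgE PC and 29.4 ± 4.12 in IgG1 PC (mean ± SD, n = 3, as for all such values). Irf9, its DNA-binding partner, had 18.2 ± 1.22, 35.9 ± 1.31, 36.9 ± 1.56, 29.5 ± 1.08 and 22.5 ± 1.61 TPM in the same order. Irf7 ran from 4.02 ± 0.768 TPM at D6 to 21.7 ± 2.64 in IgG1 PC. Isg15 stayed between group means of 2.92 and 5.87 TPM. The group means of the 3 Ifit genes, Usp18 and Rsad2 lay between 0.19 and 1.93 TPM.

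Library depth was 17.7 to 54.1 M counts, with the smallest library in IgE iGC (replicate 3). IgG1 PC replicates differed most from each other, with a chi-square per degree of freedom of 105 and 75.1 for replicate 1 against replicates 2 and 3 and 30.6 between these, against 4.82 to 26.1 for pairs in the other groups; results that change without IgG1 PC replicate 1 are given with it left out. Markers followed the sort: the summed level of 8 plasma cell markers was 10995 to 22002 CPM (counts scaled to library size) in the PC groups and 873 to 1762 CPM elsewhere. All 8 B cell markers were detected in every group. Transcripts of 12 fibroblast markers, a measure of feeder RNA, summed to 265 to 405 CPM at D6, 63.4 to 85.9 in IgE iGC, 43.5 to 76.5 in IgG1 iGC, 26.3 to 41.7 in IgE PC and 81.8 to 215 in IgG1 PC; 10 of the 12 were abundant enough to test. The sum of 10 T and NK cell markers stayed at or under 5.73 CPM in every library, with 2 of 10 testable, and Cd3e at 0 in every group except IgG1 PC, where it reached 0.035 CPM. The sum of 12 macrophage and dendritic cell markers, 7 of them testable, was 59.8 to 60.8 CPM at D6, 75.9 to 83.4 in IgE iGC, 139 to 142 in IgG1 iGC, 29.4 to 32.2 in IgE PC and 66.3 to 90.9 in IgG1 PC. Of the 12, 4 had a group mean of at least 1 CPM at D6, 4 in IgE iGC, 5 in IgG1 iGC, 3 in IgE PC and 4 in IgG1 PC. Lyz2 (at most 0.634 CPM) and Csf1r (at most 0.204 CPM) were among those below 1 CPM. Most of each sum came from the markers at or above 1 CPM, which are not named here. In bulk libraries of this kind, fewer cells of a type and less RNA per cell cannot be told apart.

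All 9 genes differed somewhere among the 5 groups (F test over the groups, edgeR quasi-likelihood, Benjamini-Hochberg adjusted p from 3.73e-11 for Stat2 to 0.0313 for Ifit1), as did 90.0% of all genes tested. Below, CPM are scaled by TMM, a log2 fold change is followed by its standard error, and a gene is said to have risen, fallen or differed where the adjusted p over all genes was under 0.05.

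**Figure D1:**
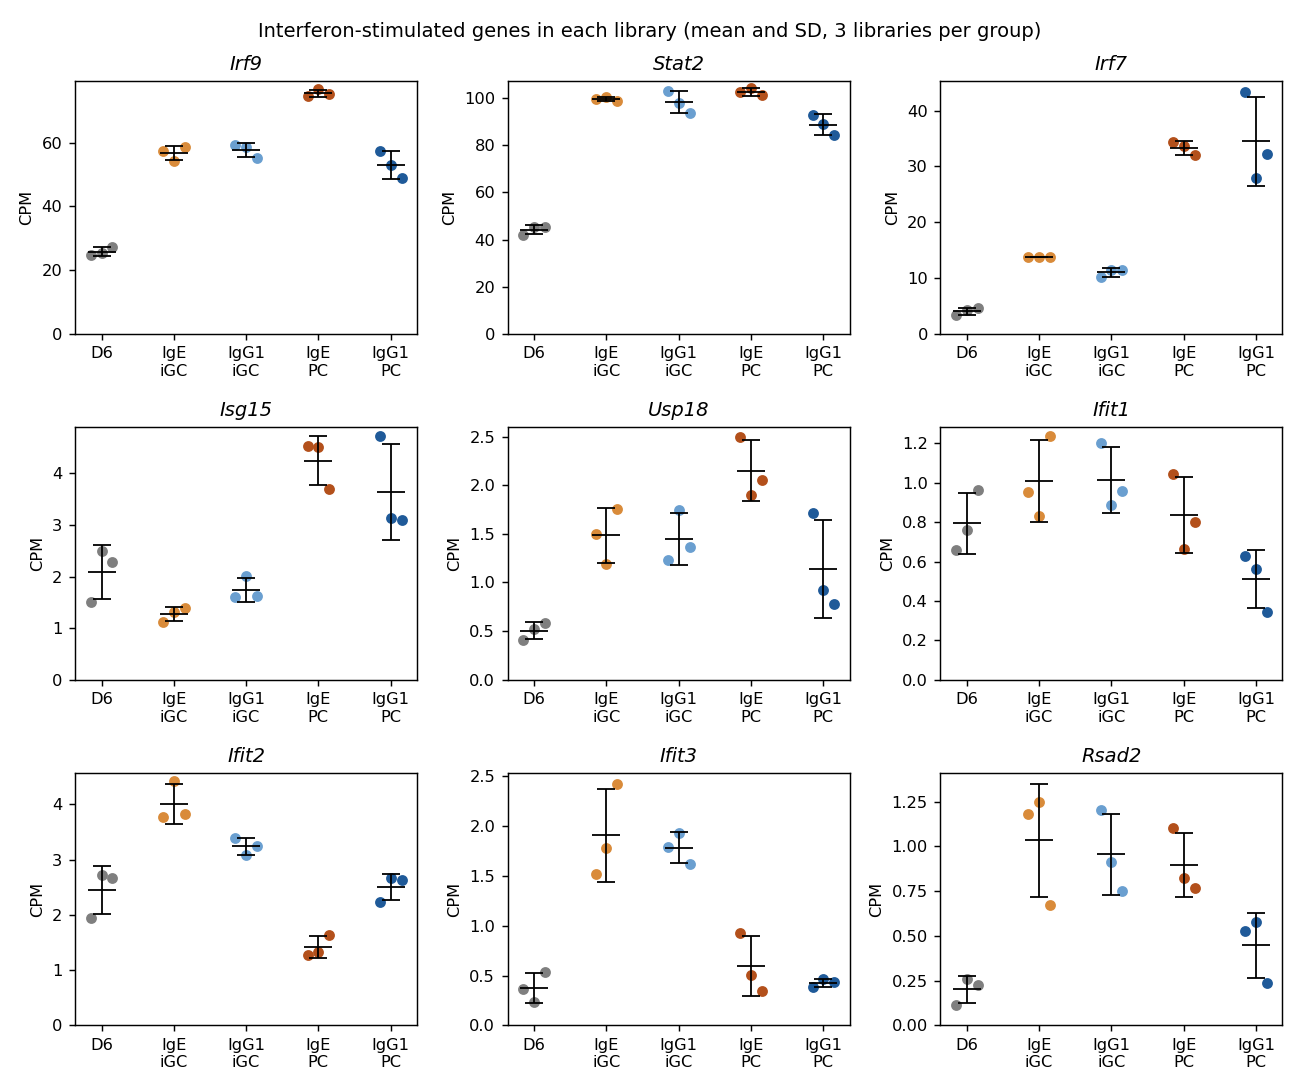
CPM of each gene (y axis, linear, from 0) in the 5 groups (x axis); each point is 1 library and bars are mean and SD of 3. Irf9, Stat2, Irf7 and Usp18 were lowest at D6, Irf7 and Isg15 were highest in both PC groups, and Ifit3 was highest in both iGC groups.

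Most of the set stood higher after the move off the feeders than at D6. The highest folds were those of Rsad2 and Ifit3 in both iGC groups and of Irf7 in both PC groups. In IgE iGC, 7 of the 9 genes rose and Isg15 fell, where 69.1% of all genes were called; in IgG1 iGC 7 rose and none fell, where 68.4% were called. In IgE PC 6 rose and Ifit2 fell (76.4% of all genes called), and in IgG1 PC 6 rose and none fell (71.9% called). The counts called in either direction lay near these shares. Of all genes, 32.8%, 32.4%, 36.9% and 35.9% rose in these comparisons. These are smaller shares than those of the 9 genes that rose, a difference that was not tested. The median log2 fold change of the set was 1.17, 1.16, 1.22 and 1.01 in that order, against -0.04, -0.04, -0.04 and 0.01 over all genes tested. Irf9, Stat2, Irf7, Usp18 and Rsad2 were higher than D6 in all 4 subsets, as were 17.8% of all genes. These 4 comparisons share the D6 libraries.

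The ISGF3 subunit genes Stat2 and Irf9 rose together in level. Stat2 had 42.0, 45.2 and 45.3 CPM in the D6 replicates, 99.6, 100.4 and 98.7 in IgE iGC, 102.9, 97.96 and 93.6 in IgG1 iGC, 102.5, 104.1 and 101.1 in IgE PC, and 92.9, 89.1 and 84.2 in IgG1 PC. Every day 8 library was above every D6 library. The rise in IgE iGC was 2.25-fold (log2 1.17 ± 0.05, adjusted p = 4.02e-11) and in IgG1 iGC 2.22-fold (1.15 ± 0.05). In PC it stood 1.22 ± 0.05 above D6 for IgE and 1.01 ± 0.05 for IgG1, and both calls were lost on log2(TPM + 1) (0.19 and 0.15). Irf9 had 24.8, 25.2 and 27.3 CPM at D6, 57.2, 54.2 and 58.7 in IgE iGC, 59.2, 58.7 and 55.2 in IgG1 iGC, 74.6, 76.7 and 75.1 in IgE PC and 57.4, 53.0 and 48.7 in IgG1 PC. It was 2.93-fold higher in IgE PC than at D6 (log2 1.55 ± 0.06) and 2.06-fold higher in IgG1 PC (1.04 ± 0.06).

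Irf7 climbed in steps. Its CPM were 3.34, 4.27 and 4.54 at D6, 13.8 in each of the IgE iGC replicates, 10.1, 11.4 and 11.5 in IgG1 iGC, 34.4, 33.6 and 32.0 in IgE PC and 43.3, 28.0 and 32.2 in IgG1 PC. No D6 value reached an iGC value and no iGC value reached a PC value. Against D6 the gene was 3.42-fold higher in IgE iGC (log2 1.77 ± 0.15), 2.72-fold in IgG1 iGC (1.44 ± 0.15), 8.25-fold in IgE PC (3.04 ± 0.15) and 8.50-fold in IgG1 PC (3.09 ± 0.15).

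The ISG15 pair moved apart in IgE iGC. Isg15 had 1.50, 2.49 and 2.28 CPM at D6 and only 1.11, 1.31 and 1.39 in IgE iGC, a fall of 0.73 ± 0.23 on the log2 scale (adjusted p = 0.011) that missed the threshold without D6 replicate 2 (-0.58, adjusted p = 0.0554) or without IgE iGC replicate 1 (-0.62, adjusted p = 0.0558). It was 1.59, 2.01 and 1.62 CPM in IgG1 iGC, overlapping D6 (-0.26 ± 0.22). Both PC groups were above D6, IgE PC by 1.02 ± 0.21 and IgG1 PC by 0.79 ± 0.21; on log2(TPM + 1) these values were 0.13 (adjusted p = 0.451) and 0.05 (adjusted p = 0.76). Usp18, the protease that removes ISG15 from proteins, rose in all 4 subsets, from 0.408, 0.521 and 0.584 CPM at D6 to 1.50, 1.19 and 1.76 in IgE iGC and 1.23, 1.74 and 1.36 in IgG1 iGC. These are rises of 2.91-fold (log2 1.54 ± 0.30) and 2.86-fold (1.51 ± 0.30). In PC it was 2.09 ± 0.30 above D6 for IgE and 1.14 ± 0.30 for IgG1, where log2(TPM + 1) gave 0.17 (adjusted p = 0.281).

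Among the effectors, Rsad2 and Ifit3 rose most between D6 and iGC, from very few reads. Rsad2 was counted 5, 11 and 9 times in the D6 libraries, 0.113, 0.261 and 0.228 CPM. It reached 1.18, 1.25 and 0.672 CPM in IgE iGC and 1.20, 0.913 and 0.753 in IgG1 iGC, 5.23-fold (log2 2.39 ± 0.40, adjusted p = 7.9e-05) and 4.74-fold (2.24 ± 0.40) above D6. Ifit3 went from 0.363, 0.237 and 0.533 CPM to 1.52, 1.78 and 2.43 in IgE iGC and 1.79, 1.93 and 1.62 in IgG1 iGC, 4.97-fold (log2 2.31 ± 0.34) and 4.71-fold (2.24 ± 0.34). In PC it lay near D6 again (0.67 ± 0.36, adjusted p = 0.105, in IgE PC, which passed the threshold without D6 replicate 3 at 0.99 or without IgE PC replicate 3 at 1.00; 0.19 ± 0.37 in IgG1 PC). Rsad2 remained 2.15 ± 0.41 above D6 in IgE PC. In IgG1 PC its rise of 1.14 ± 0.42 (adjusted p = 0.0248) was lost without D6 replicate 1 (0.85), IgG1 PC replicate 1 (1.04) or IgG1 PC replicate 2 (0.87), and its lowest library there, 0.237 CPM, was under the highest D6 library.

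Ifit2 rose less, by 0.71 ± 0.16 in IgE iGC and 0.41 ± 0.16 in IgG1 iGC (adjusted p = 0.0348). The latter call was lost without D6 replicate 1 (0.27), IgG1 iGC replicate 1 (0.38) or IgG1 iGC replicate 3 (0.41). It was also lost with libraries scaled by total count (0.35, adjusted p = 0.072), with no filter on low counts (0.41, adjusted p = 0.086) and on log2(TPM + 1) (0.11, adjusted p = 0.405). In IgE PC Ifit2 fell below D6, with 1.28, 1.33 and 1.64 CPM against 1.95, 2.72 and 2.66 (a fall of 0.79 ± 0.17). Ifit1 had 0.658, 0.758 and 0.964 CPM at D6 and did not pass the test in any subset, with values from -0.65 ± 0.29 in IgG1 PC (adjusted p = 0.0576, and under 0.05 without D6 replicate 1 at -0.76 or IgG1 PC replicate 1 at -0.79) to 0.36 ± 0.28 in IgG1 iGC. Its neighbouring paralog Ifit1bl1 did rise, by 5.01 ± 0.59 in IgE iGC and 5.37 ± 0.58 in IgG1 iGC, from 0.0644 ± 0.0390 CPM at D6, where it was at or near the level of single reads. The summed counts of Ifit1 and Ifit1bl1 rose by 1.88 and 2.14.

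**Figure D2:**
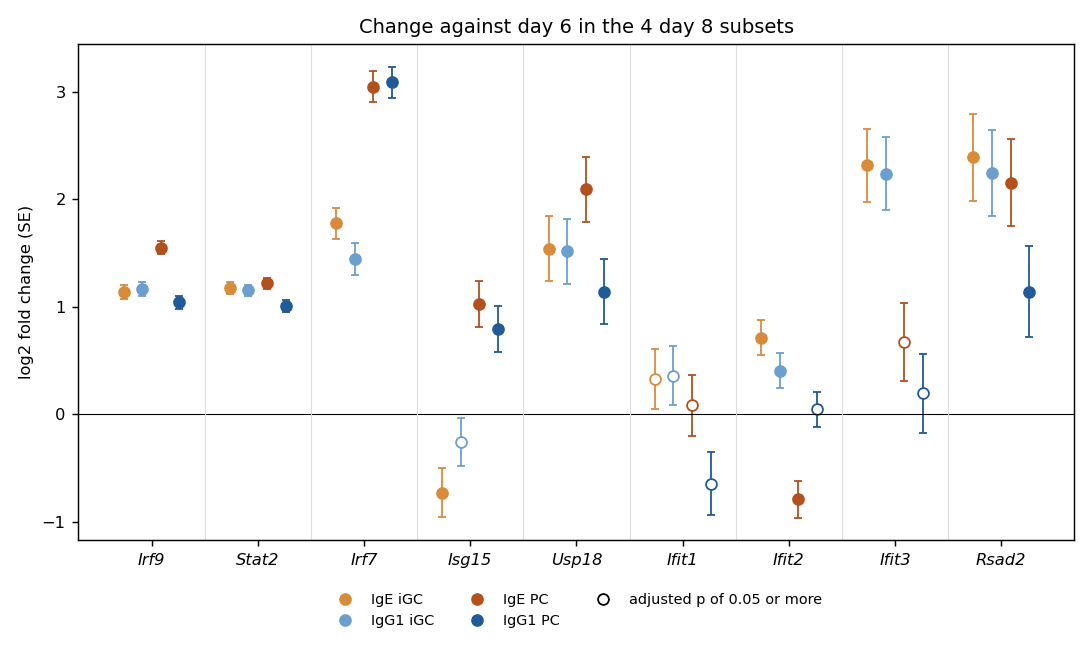
Log2 fold change against D6 (y axis, bars are SE) of each gene (x axis) in the 4 day 8 subsets (colours); open points had an adjusted p of 0.05 or more. Irf9, Stat2, Irf7, Usp18 and Rsad2 were above D6 in all 4 subsets, and Ifit1 passed in none.

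The D6 group differed from the others in more than time. It was unsorted, it was the only group taken on the feeders with IL-4, and its fibroblast marker sum of 265 to 405 CPM exceeded that of every day 8 library. Time, sorting, feeders and IL-4 cannot be told apart in these values.

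The step from iGC to PC took the genes in different directions: the transcription factor Irf7 and the modifier Isg15 rose in both isotypes, while the effector Ifit3 fell in both. In IgE cells 3 of the 9 genes rose and 2 fell, where 64.1% of all genes were called (30.5% rose, 33.6% fell). In IgG1 cells 2 rose and 4 fell, where 59.1% were called (30.1% rose, 29.0% fell). These counts lie near the background in both isotypes. The median log2 fold change was 0.04 in IgE and -0.36 in IgG1, against -0.08 and 0.01 over all genes. At this step 8 of 10 fibroblast markers rose in IgG1 cells (median 1.80) and 2 fell in IgE cells. Of 7 macrophage and dendritic cell markers 6 fell and 1 rose in IgE cells (median -2.73), and 4 fell and 2 rose in IgG1 cells (median -0.78). The part of these markers in the changes was not tested.

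Irf7 rose 2.41-fold in IgE cells (log2 1.27 ± 0.13, adjusted p = 5.35e-07) and 3.13-fold in IgG1 cells (1.64 ± 0.13, adjusted p = 6.82e-08). Isg15 rose 3.37-fold in IgE cells, to 4.53, 4.52 and 3.70 CPM (1.75 ± 0.23, adjusted p = 5.75e-06). In IgG1 cells it rose 2.07-fold, to 4.72, 3.13 and 3.09 CPM (1.05 ± 0.22, adjusted p = 0.000722; 0.83 without IgG1 PC replicate 1; 0.36 with adjusted p = 0.0522 on log2(TPM + 1)). Every PC library lay above every iGC library for both genes.

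Ifit3 fell to 0.929, 0.505 and 0.349 CPM in IgE PC and 0.385, 0.463 and 0.432 in IgG1 PC, 3.12-fold lower than iGC in IgE (log2 -1.64 ± 0.33) and 4.12-fold lower in IgG1 (-2.04 ± 0.33). Ifit2 fell 2.84-fold in IgE cells (-1.51 ± 0.17, adjusted p = 1.16e-06), and in IgG1 cells its value of -0.36 ± 0.16 did not pass (adjusted p = 0.0647) but did by total count (-0.59, adjusted p = 0.00635) and on log2(TPM + 1) (-0.48, adjusted p = 0.00131), with 2.24, 2.66 and 2.63 CPM in PC and 3.38, 3.09 and 3.24 in iGC. Ifit1 was 2.01-fold lower in IgG1 PC than in IgG1 iGC (-1.005 ± 0.29, adjusted p = 0.00743), and in IgE cells it had -0.24 ± 0.29 (-0.71, adjusted p = 0.0317, by total count). With Ifit1bl1 counted in, the IgE value was -1.72 (adjusted p = 2.6e-05), and Ifit1bl1 alone had -4.18 ± 0.56 in IgE cells and -2.18 ± 0.43 in IgG1 cells, both called. Rsad2 fell in IgG1 cells by 1.11 ± 0.37 (adjusted p = 0.0171), a call lost without IgG1 iGC replicate 1 (-0.91) or IgG1 PC replicate 3 (-0.79), and had -0.23 ± 0.35 in IgE cells.

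For Irf9 and Stat2 the values at this step depended on the scale. Irf9 rose 1.33-fold in IgE cells (0.41 ± 0.06, adjusted p = 2.3e-05), but its value was -0.06 when libraries were scaled by total count and -0.27 on log2(TPM + 1), scales on which the median of all genes lay at -0.55 and -0.62. In IgG1 cells it had -0.12 ± 0.06 (adjusted p = 0.0964; -0.18 with adjusted p = 0.0105 without IgG1 PC replicate 1), and it was called lower by total count (-0.36, adjusted p = 4.6e-05) and on log2(TPM + 1) (-0.69). Stat2 had 0.04 ± 0.05 in IgE cells, -0.43 by total count and -0.80 on log2(TPM + 1). In IgG1 cells it fell by 0.15 ± 0.05 (adjusted p = 0.0236), a call lost without IgG1 iGC replicate 1 (-0.12) or IgG1 PC replicate 3 (-0.11). Usp18 did not pass in either isotype (0.55 ± 0.28, adjusted p = 0.098, in IgE; -0.37 ± 0.28, adjusted p = 0.269, in IgG1). Without IgG1 PC replicate 1, which had 1.71 CPM against 0.926 and 0.777 in the others, the IgG1 value was -0.76 (adjusted p = 0.0207), and on log2(TPM + 1) it was -0.56 (adjusted p = 0.00204). The IgE value passed when only the IgE groups were fitted (0.58, adjusted p = 0.027).

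IgE PC and IgG1 PC differed in 6 of the 9 genes: 5 were higher in IgE PC and Ifit2 was lower. Of all genes 58.1% were called in this comparison (27.4% of all genes were higher and 30.7% lower), so the share called was near the background. The median log2 fold change was 0.48, against -0.05 over all genes. Irf9 was 1.42-fold higher in IgE PC (0.51 ± 0.06, adjusted p = 4.39e-06), with all 3 IgE values between 74.6 and 76.7 CPM and the IgG1 values between 48.7 and 57.4. Stat2 was 1.16-fold higher (0.21 ± 0.05, adjusted p = 0.00276), but had -0.04 by total-count scaling, which placed the median of all genes at -0.30, and 0.05 (adjusted p = 0.694) on log2(TPM + 1). Usp18 was 1.93-fold higher (0.95 ± 0.28, adjusted p = 0.00891), with 2.496, 1.89 and 2.06 CPM in IgE PC and 1.71, 0.926 and 0.777 in IgG1 PC. The groups did not overlap, and the difference was 1.33 without IgG1 PC replicate 1.

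Ifit2 went the other way, 1.79-fold lower in IgE PC (-0.84 ± 0.17, adjusted p = 0.000634), with no overlap between the isotypes. Rsad2 was 2.02-fold higher in IgE PC, at 1.10, 0.821 and 0.767 CPM against 0.525, 0.579 and 0.237 (1.01 ± 0.37, adjusted p = 0.0291). The call was lost without IgE PC replicate 1 (0.84, adjusted p = 0.113) or IgG1 PC replicate 3 (0.70, adjusted p = 0.125). Ifit1 was 1.66-fold higher (0.73 ± 0.30, adjusted p = 0.0455), at 1.04, 0.663 and 0.802 CPM against 0.630, 0.560 and 0.345. That call was lost without IgE PC replicate 1 (0.53), IgE PC replicate 3 (0.77), IgG1 PC replicate 2 (0.83) or IgG1 PC replicate 3 (0.50). The sum of Ifit1 and its paralog Ifit1bl1, a separate gene, was -0.22. Ifit1bl1 itself was lower in IgE PC (-2.37 ± 0.60), a call lost on log2(TPM + 1) (-0.29). Irf7 (-0.04 ± 0.13; 0.15 without IgG1 PC replicate 1 and -0.28, adjusted p = 0.046, by total count), Isg15 (0.23 ± 0.21) and Ifit3 (0.48 ± 0.36; -0.0013 without IgE PC replicate 1) did not pass, and their groups overlapped. Fibroblast markers were lower in IgE PC in 9 of 10 tested genes and macrophage and dendritic cell markers in 6 of 7. Of the 8 plasma cell markers 6 were higher in IgE PC (median 0.75), and of the 8 B cell markers 5 were lower (median -0.81). The part of these markers in the differences was not tested.

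IgE iGC and IgG1 iGC differed in the fewest genes. None of the 9 genes passed between IgE iGC and IgG1 iGC in edgeR, where 3.87% of all genes were called. Irf7 had the lowest p of the 9, with a log2 fold change of 0.33 ± 0.14 (edgeR adjusted p = 0.254). It was called when only the iGC libraries were fitted (0.32, adjusted p = 0.0144). DESeq2 called none of the 9. All 3 IgE iGC values of Irf7, at 13.8 CPM, were above the highest IgG1 iGC value of 11.5. Isg15 had -0.47 ± 0.23 and Ifit2 0.31 ± 0.16, and the other genes lay between -0.03 and 0.14. Their SE ran from 0.05 for Stat2 to 0.35 for Rsad2.

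**Figure D3:**
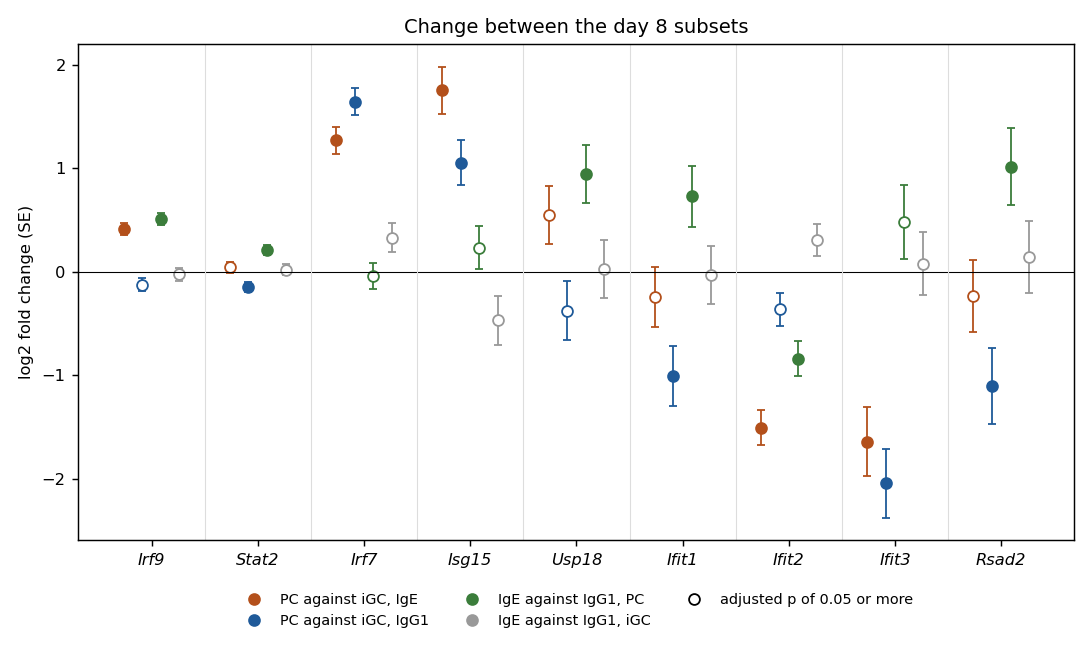
Log2 fold change (y axis, bars are SE) of each gene (x axis) for the iGC to PC step in each isotype and for IgE against IgG1 at each stage (colours); open points had an adjusted p of 0.05 or more. Irf7 and Isg15 rose at the PC step in both isotypes and Ifit3 fell in both; Irf9 in IgE cells (0.41) and Stat2 between the PC groups (0.21) reversed by total-count scaling.

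Whether the PC step itself depended on isotype was tested as the IgE change minus the IgG1 change. It differed for 3 of the 9 genes, where 42.9% of all genes were called. The Irf9 change was 0.54 ± 0.09 higher in IgE cells (adjusted p = 0.000177), with 0.41 in IgE and -0.12, not called, in IgG1. The Ifit2 change was 1.14 ± 0.23 lower in IgE cells (adjusted p = 0.00111), with -1.51 in IgE and -0.36, not called, in IgG1. Stat2 gave 0.19 ± 0.07 (adjusted p = 0.0483), a borderline call that was -0.05 by total-count scaling. Leaving out any 1 of IgE iGC replicates 1, 2 and 3 (0.19, 0.20 and 0.18), IgE PC replicates 1 and 2 (0.19 and 0.18), IgG1 iGC replicates 1 and 2 (0.16 and 0.19) or IgG1 PC replicate 3 (0.15) ended the Stat2 call. Without IgG1 PC replicate 1, Isg15 (0.92, adjusted p = 0.0172) and Usp18 (1.31, adjusted p = 0.00524) passed as well, from 0.70 ± 0.31 and 0.92 ± 0.40 with it. Without IgG1 PC replicate 2, Irf7 passed in the other direction (-0.50, adjusted p = 0.0155). Fibroblast markers were called lower here in 9 of 10 tested genes, macrophage and dendritic cell markers in 6 of 7 (median -1.88) and B cell markers in 5 of 8 (median -0.70), and their part in the result was not tested. By total count, Irf7 passed as well (-0.60, adjusted p = 0.00998).

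Across the 15 libraries the genes formed groups by pattern, described here by Pearson r of log2(CPM + 0.5), with libraries that share groups and with no test. Irf9 and Stat2 were the closest pair (r = 0.97), and Usp18 followed Irf9 (0.92) and Stat2 (0.86). Each of the 9 genes had a higher r with some gene outside the set than with any other gene of the set. Examples are Nhlrc3 with Irf9 (0.989), Ezh1 with Stat2 (0.990) and Mocs2 with Usp18 (0.937). Rsad2 was near Stat2 (0.84) and Irf9 (0.79), and Irf7 near Irf9 (0.83). Isg15 was farthest from the rest, at -0.81 with Ifit2 and -0.64 with Ifit3, and closest to Irf7 (0.66). Ifit1 and Ifit3 had r = 0.69. The plot of these correlations shows no single shared profile.

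**Figure D4:**
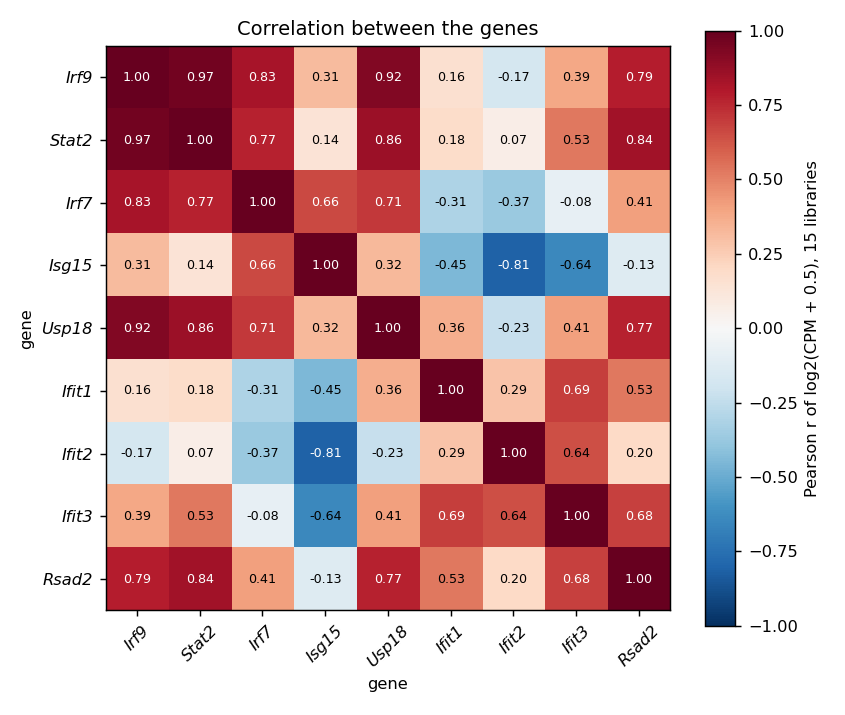
Pearson r between each pair of the 9 genes over 15 libraries, on log2(CPM + 0.5); rows and columns are genes and colour is r from -1 to 1. Irf9, Stat2, Usp18 and Rsad2 form a block with r of 0.77 to 0.97, and Isg15 is negative with each of the 3 Ifit genes.

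Outside the set, the 5 genes closest to its mean standardised profile were Noxred1 (r = 0.960), Pbx3 (0.958), Arhgef3 (0.956), Arid4a (0.956) and Ddx46 (0.955), over the same 15 libraries. They describe likeness of pattern only.

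The ligands of the pathway were essentially undetected. None of 20 interferon genes had enough counts to test, and 4 had any count in any library: Ifnab, Ifne, Ifnk and Ifng. Ifnb1, which encodes interferon beta, had 0 counts in all 15 libraries, which by a limit of 3 counts a library allows up to 0.0579 CPM in the deepest and 0.155 CPM in the shallowest. Ifng, the type II interferon, had 0.136 to 0.254 CPM at D6 and 0.0700 to 0.116 in IgG1 PC, and at most 0.0245 CPM in any library of the other groups. At this depth these are a handful of reads.

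Receptors and kinases were expressed throughout, and all 18 genes on the list of receptors, kinases, STATs and regulators were tested. Against D6, 14 rose and 2 fell in IgE iGC, 15 rose and 2 fell in IgG1 iGC, 9 rose and 8 fell in IgE PC, and 9 rose and 6 fell in IgG1 PC, where 69.1%, 68.4%, 76.4% and 71.9% of all genes were called. At the PC step 7 rose and 8 fell in IgE cells, and 4 rose and 10 fell in IgG1 cells, where 64.1% and 59.1% of all genes were called. Ifnar1, the signalling chain of the type I receptor, rose at that step by 0.89 ± 0.05 in IgE and 0.43 ± 0.05 in IgG1, but on log2(TPM + 1) it had 0.11 (adjusted p = 0.389) and -0.24. Tyk2, the kinase bound to it, rose by 0.82 ± 0.05 and 0.29 ± 0.05, but had 0.08 (adjusted p = 0.337) and -0.31 on that scale, and 0.06 (adjusted p = 0.363) in IgG1 by total count. Jak1, the kinase bound to the other chain, fell by 0.95 ± 0.07 and 0.87 ± 0.07. Ifnar2, that other chain, rose by 0.20 ± 0.07 in IgE, a call lost without IgE iGC replicate 2 (0.16), with -0.27 by total count and -0.31 on log2(TPM + 1), and had 0.06 ± 0.07 in IgG1; 7.06% of the windows of its transcripts also occur in the gene model Gm21970. Between the PC groups 10 of the 18 were higher in IgE PC and 3 lower, where 58.1% of all genes were called. Tyk2 was among the higher ones (0.46 ± 0.05), as was Ifnar1 (0.35 ± 0.05), whose call was lost by total count (0.10, adjusted p = 0.155) and on log2(TPM + 1) (0.19, adjusted p = 0.167). Ifnar2 (0.09 ± 0.07) and Jak1 (-0.13 ± 0.07) did not pass, but without IgG1 PC replicate 1 both did (0.17, adjusted p = 0.0191, and -0.22, adjusted p = 0.000526), and Jak1 also did by total count (-0.39). Between the iGC groups none was higher and 1 lower, where 3.87% of all genes were called.

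The 44 other interferon-stimulated genes on a wider list moved in both directions. Against D6, 22 rose and 7 fell in IgE iGC, 24 and 9 in IgG1 iGC, 20 and 15 in IgE PC, and 19 and 12 in IgG1 PC, counts near the 69.1%, 68.4%, 76.4% and 71.9% called of all genes. Their median log2 fold changes were 0.49, 0.48, 0.34 and 0.14, below those of the 9 genes in each case. At the PC step 13 rose and 19 fell in IgE cells (median -0.11), and 10 rose and 22 fell in IgG1 cells (median -0.24), where 64.1% and 59.1% of all genes were called. Isg20, an exonuclease also known as a plasma cell transcript, had the highest rise, 4.41 ± 0.14 in IgE and 3.48 ± 0.14 in IgG1, and reached 216 ± 7.52 CPM in IgE PC against 94.5 ± 23.3 in IgG1 PC. Zbp1, a sensor of Z-form nucleic acid, rose by 1.63 ± 0.08 and 1.58 ± 0.08, and Samd9l, an antiviral translation inhibitor, fell by 2.93 ± 0.18 and 2.31 ± 0.17. Between the PC groups 16 were higher and 13 lower in IgE PC (median 0.03), where 58.1% of all genes were called. Isg20 (1.19 ± 0.12) and Trim30a (1.15 ± 0.08) led those that were higher; Trim30a, a TRIM family protein, rose at the PC step by 1.15 ± 0.08 in IgE cells and had -0.09 ± 0.08 in IgG1 cells, which was called as a fall by total count (-0.31), on log2(TPM + 1) (-0.66) and without IgG1 PC replicate 2 (-0.23). Between the iGC groups 1 was higher and 1 lower, near the 3.87% of all genes called.

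**Figure D5:**
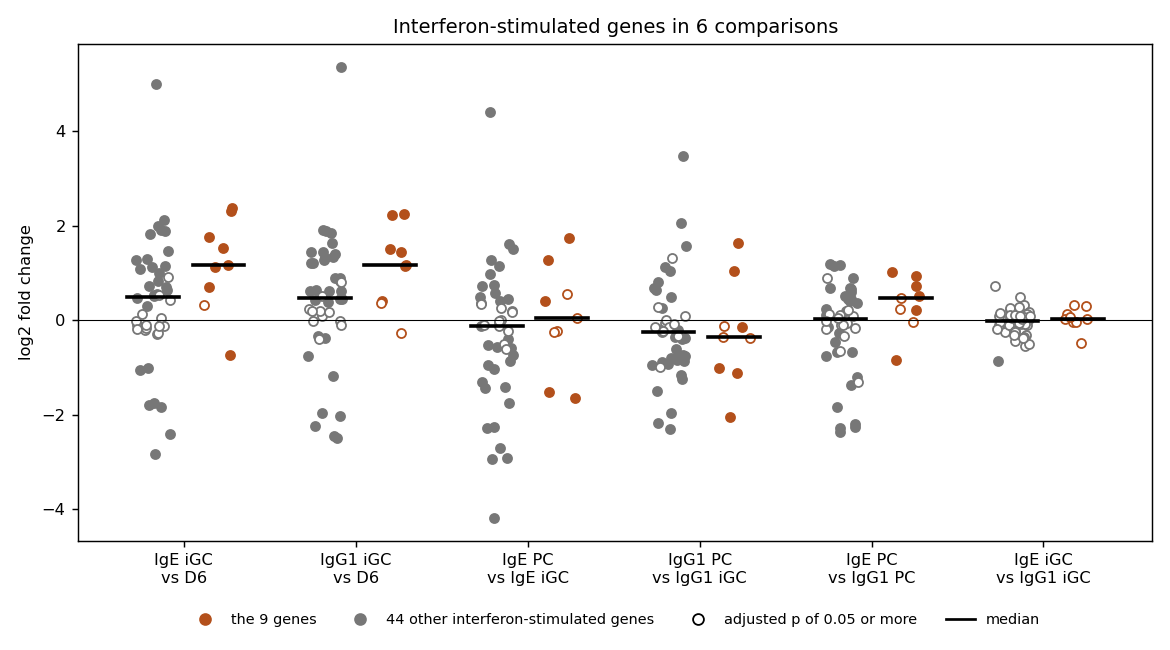
Log2 fold change (y axis) of the 9 genes and of 44 other interferon-stimulated genes (colours) in 6 comparisons (x axis); each point is a gene, open points had an adjusted p of 0.05 or more, and lines are medians. Both iGC groups lie above D6 at medians of 1.17 and 1.16 for the 9 genes and 0.49 and 0.48 for the others, and the PC step scatters around 0.

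Of 7 other factors of the IRF family, all tested, 2 rose and 3 fell at the PC step in each isotype, near the 64.1% and 59.1% of all genes called. Irf4, a regulator that plasma cells need, rose by 4.49 ± 0.08 in IgE and 3.86 ± 0.08 in IgG1 and was 0.74 ± 0.07 higher in IgE PC than in IgG1 PC. Irf8, which is linked to germinal centre and B cell identity, had -1.305 ± 0.06 and -0.81 ± 0.06, both called as falls. Between the iGC groups none of the 7 passed, where only 3.87% of all genes were called.

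Of 21 genes of nucleic acid sensing, whose products trigger interferon production, 20 were tested. At the PC step 9 rose and 9 fell in IgE cells and 8 rose and 8 fell in IgG1 cells, and 8 were higher and 7 lower in IgE PC than in IgG1 PC. Of all genes 64.1%, 59.1% and 58.1% were called in these comparisons. The endosomal receptors Tlr7, for RNA, and Tlr9, for DNA, went opposite ways between the PC groups: Tlr7 was higher in IgE PC by 1.37 ± 0.13, at 330.0 ± 16.9 CPM against 128 ± 34.2, and Tlr9 lower (-2.22 ± 0.21), at 9.97 ± 0.857 CPM against 46.3 ± 17.0. None of the 20 passed between the iGC groups, where only 3.87% of all genes were called.

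Genes of the interferon gamma response, GTPases and antigen processing genes, were tested for 23 of 25. At the PC step 10 rose and 7 fell in IgE cells, and 7 rose and 8 fell in IgG1 cells, where 64.1% and 59.1% of all genes were called. Between the iGC groups 5 of 23 were lower in IgE and none higher, where 3.87% of all genes were called. They included the guanylate-binding proteins Gbp2 (-1.06 ± 0.12), Gbp3 (-0.91 ± 0.10) and Gbp7 (-1.10 ± 0.17), GTPases that act against intracellular microbes. In PC the differences of these genes were -2.04 ± 0.13, -1.88 ± 0.11 and -2.01 ± 0.19. They do not stand for the list: between the PC groups 10 of the 23 were higher in IgE PC and 6 lower (median 0.13). Of all genes 58.1% were called there, and GTPases were on both sides. Of the 76-base windows of Gbp7 transcripts, 11.2% occur in other genes too. The macrophage and dendritic cell marker sum was higher in IgG1 iGC (139 to 142 CPM) than in IgE iGC (75.9 to 83.4 CPM), and its part in this was not tested.

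Read sharing limits some of these values. Of the 76-base windows of Ifit3 transcripts, 40.7% also occur in its paralog Ifit3b, and its expected counts were fractional in 15 of 15 libraries. Ifit3b had lower levels, 0.083 to 0.388 CPM in the group means, and summing both turned the difference between the PC groups from 0.48 to -0.11. Ifit1 shares 5.11% of its windows with Ifit1bl2, Irf9 0.836% with Rnf31, and Stat2 0.0966%. No window of the other 5 genes was shared. Of the windows of Ifit1bl1 1.83% were shared, most often with Ifit1bl2, so its sum with Ifit1 adds a second gene and is no measure of shared reads. Counts in single libraries were 16 to 49 for Ifit1, 10 to 73 for Ifit3, 18 to 86 for Usp18 and 5 to 52 for Rsad2, against 1065 to 2746 for Irf9 and 1785 to 4618 for Stat2, and 42 to 166 for Ifit2. Rsad2 had the lowest count in a library, and its SE against D6 was 0.40 to 0.42, while SE was 0.16 to 0.17 for Ifit2 and 0.05 for Stat2.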

How the data were processed

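Single-end reads of 76 bp that keep strand were made from polyA RNA of 15 libraries, 3 in each of 5 groups, per the labels' protocols. Per the submitters' processing notes, cutadapt 1.9.1, STAR 2.5.2a, RSEM 1.3.0 and DESeq2 1.12.3 were used with genome build GRCm38; the annotation is not given in the sources used here. The authors deposited an RSEM expected count, which need not be whole because shared reads are divided among genes, and a TPM, scaled by the authors for length and library total, for each gene and library.

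Expected counts were rounded. Genes were kept by filterByExpr (minimum count 10, minimum total 15; 15692 genes), libraries were scaled by TMM (factors 0.764 to 1.15), and a model with a mean for each group was fitted over the 15 libraries in edgeR 4.0.16 in R 4.3.3 (robust quasi-likelihood, Benjamini-Hochberg over all genes tested, threshold 0.05; biological coefficient of variation 10.4%, 10 residual degrees of freedom). The edgeR steps were tried on simulated counts with few changed genes and the same dispersion for every gene, unlike these data. That trial does not cover how values depend on scaling. SE is the size of the log2 fold change divided by the square root of F, which is approximate. CPM use the TMM-scaled totals. The table of names matched 51633 of 51912 identifiers. Depth was 17.7 to 54.1 M counts. Reads carry no molecular identifiers and can be copies of one molecule, so a limit from 0 counts covers counting error only.

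The lists covered other interferon-stimulated genes, interferons, receptors and kinases, IRF factors, nucleic acid sensing, interferon gamma response genes, and markers of B cells, plasma cells, fibroblasts, T and NK cells, and macrophages and dendritic cells. The members and lists were chosen with earlier results of these data known. Genes named beyond the 9 held a role in the pathway, were paralogs of a member, or were among the 3 largest called changes in each direction of their list with a mean of 10 CPM. Not all are printed, and the likeness of pattern was ranked by r. Isg20, Zbp1, Samd9l and the others were named by that rule, and 1 gene it would name is not reported here. Window sharing was counted in GENCODE vM21 transcripts.

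Alternatives were DESeq2 1.42.0, median-ratio and total-count scaling, no filter, fitting only the groups compared, limma 3.58.1 on log2(TPM + 1), a replicate block, leaving out each library, and counts summed with a paralog. The labels give replicate numbers but do not say that a number marks a shared animal or day. Whether biological replicates came from separate mice is not stated in them, so p-values measure the spread between these samples.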

Additional observations from a re-analysis of the deposited data

Results flagged for a closer look

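Listed here are the 15 named genes whose PC step was called as unequal in IgE and IgG1 cells. The test was edgeR's interaction term with Benjamini-Hochberg adjustment over all genes, and it called 42.9% of all genes tested. Named genes that were not called are left out, and some genes outside the set were named for large called changes. The count of 15 therefore cannot be set beside that share. Values are the IgE change minus the IgG1 change on the log2 scale, with SE.

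Among the 9 genes, Ifit2 had -1.14 ± 0.23 (adjusted p = 0.00111), Irf9 0.54 ± 0.09 (adjusted p = 0.000177) and Stat2 0.19 ± 0.07 (adjusted p = 0.0483). The Stat2 value was -0.05 by total-count scaling and 0.01 on log2(TPM + 1). Of the signalling genes, Ifnar1 had 0.46 ± 0.07 and Tyk2 0.53 ± 0.07, but the Ifnar1 call was lost on log2(TPM + 1) (0.34, adjusted p = 0.111).

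Among other interferon-stimulated genes, Trim30a had 1.24 ± 0.11 (adjusted p = 8.74e-07) and Isg20 0.93 ± 0.19 (adjusted p = 0.00107). Ifit1bl1 had -2.003 ± 0.73 (adjusted p = 0.0377), from few reads in the PC libraries; the call was lost when any 1 of 9 of the 12 libraries was left out. The IRF factors Irf4 (0.64 ± 0.10) and Irf8 (-0.49 ± 0.08) went opposite ways, as did the nucleic acid receptors Tlr7 (1.42 ± 0.18) and Tlr9 (-1.98 ± 0.28). The guanylate-binding proteins Gbp2 (-0.98 ± 0.18), Gbp3 (-0.97 ± 0.15) and Gbp7 (-0.91 ± 0.25) fell more in IgE cells; on log2(TPM + 1) the calls of Gbp2 (-0.63, adjusted p = 0.0504) and Gbp7 (-0.25, adjusted p = 0.519) were lost. With groups of 3 libraries, leaving 1 out shows whether a result depends on it, but not whether that library is an outlier.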

How the results depend on the processing

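All values here are log2 fold changes or counts of genes called, and the cause of each change was not tested. Of the counts of called genes, 273 stayed within 1.5 times the reported one and 15 did not. Of the values of the 9 genes under an alternative, 995 kept direction and side of the threshold, 50 lost it, 24 gained it and 38 changed sign; for the other named genes these were 727, 27, 6 and 9.

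Counts of called genes moved as follows. On log2(TPM + 1), tested in limma, 7 of the 9 genes were abundant enough to test, and 3 of them were called between the PC groups (6 reported), 4 between IgE PC and D6 (7 reported) and 3 between IgG1 PC and D6 (6 reported); over all genes the iGC comparison gave 388 calls (607 reported) and the isotype dependence 4268 (6733 reported). Between the iGC groups DESeq2 called 937 genes, the fit of these groups alone 1503 genes and 1 of the 9, and leaving out 1 library 323 to 403 genes. The isotype dependence covered 2 to 5 of the 9 genes when 1 library was left out, 5 of them without IgG1 PC replicate 1.

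Signs changed by total-count scaling, which moved the median of all genes to -0.30 between the PC groups, -0.55 at the IgE and -0.22 at the IgG1 PC step, -0.30 for the isotype dependence, and -0.57 and -0.27 for IgE PC and IgG1 PC against D6. Between the PC groups Isg15 became -0.0074, Stat2 -0.0397 and Ifnar2 -0.16. At the IgE step Irf9 became -0.0568, Stat2 -0.43 and Ifnar2 -0.27, and at the IgG1 step Ifnar2 -0.18. The isotype dependence of Stat2 became -0.0458. Against D6, Ifit1 became -0.45 in IgE PC, and Ifit2 -0.23 and Ifit3 -0.0784 in IgG1 PC.

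On log2(TPM + 1) the median of all genes moved to -0.14 between the PC groups, -0.62 and -0.52 at the IgE and IgG1 PC steps, -0.12 for the isotype dependence, -0.11 for each iGC group against D6, and -0.72 and -0.59 for IgE PC and IgG1 PC against D6. At the IgE step Irf9 became -0.27, Stat2 -0.80, Usp18 -0.0275 and Ifnar2 -0.31. At the IgG1 step Ifnar1 became -0.24, Ifnar2 -0.34 and Tyk2 -0.31. Against D6, Ifit3 became -0.0550 in IgE PC, and Ifit2 -0.37 and Ifit3 -0.12 in IgG1 PC. Between the PC groups Ifnar2 became -0.0747, and between the iGC groups Usp18 became -0.0713. For Irf7 between the PC groups DESeq2 gave 0.0013 and median-ratio size factors 0.0029. Counts summed with the paralog gave -0.22 for Ifit1 and -0.11 for Ifit3 between the PC groups, -0.18 for the isotype dependence of Ifit3, and 0.38 for Ifit1 in IgG1 PC against D6.

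Leaving out 1 library at a time, values that changed sign ran as follows. Between the iGC groups Ifit1 ran from -0.18 to 0.11, Ifit3 from -0.11 to 0.22, Irf9 from -0.0563 to 0.0063, Stat2 from -0.0123 to 0.0548, Usp18 from -0.0941 to 0.18 and Rsad2 from -0.00076 to 0.34. Between the PC groups Ifit3 ran from -0.0013 to 0.75 and Irf7 from -0.17 to 0.15. The isotype dependence of Ifit3 ran from -0.0807 to 0.69. Against D6, Ifit1 in IgE PC ran from -0.11 to 0.24, and in IgG1 PC Ifit2 ran from -0.0934 to 0.13 and Ifit3 from -0.0538 to 0.51. Ifnar2 at the IgG1 step ran from -0.0335 to 0.12. None of these was called in the reported fit.

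Replicate numbers are shared by all groups, so a model holding a term for that number (a replicate block) was also run. It ended the calls of Ifit1 between the PC groups (0.71, edgeR adjusted p = 0.0631) and of Stat2 for the isotype dependence (0.19, edgeR adjusted p = 0.0567), and changed no other call among the 9 genes. Libraries with the same number did not deviate together: over 30 pairs the correlation of deviations from the group means ran from -0.238 to 0.130, with a mean of -0.0068, and 7 of 15 libraries correlated best with their own number. Low counts limit Rsad2 (from 5 counts a library), Ifit3 (from 10) and Ifit1 (from 16), and the smallest library held 17.7 M counts.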
